A study of Rattus norvegicus with 6 samples.

Results

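Plasma proteins of the hepatic acute phase response were examined in RNA from liver endothelial cells of cirrhotic and control rats. The 10 genes A2m, Lbp, Orm1, Crp, Hp, Hpx, Fga, Fgb, Fgg and Alb were followed, out of 10411 genes with a probe set of their own on the array. Every probe set whose only gene symbol was one of these was taken, dim ones included, which gave 14 probe sets. The cirrhotic group held 3 arrays from adult male Wistar rats that had undergone a cirrhosis induction protocol, and the control group 3 arrays from control Wistar rats. In both groups the livers were perfused with collagenase and the cells were separated by isopycnic centrifugation and captured on antibody-coated magnetic beads. The sources used here do not give the agent that caused the cirrhosis, the antibody's antigen, the control rats' sex or how many rats an array represents. P-values therefore measure the spread between these arrays.

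During injury or infection the liver changes the mix of proteins it secretes into blood. Interleukin 6, acting through its receptor, the shared subunit gp130 and the transcription factor STAT3, together with interleukin 1 and glucocorticoids, raises the transcription of positive acute phase genes in hepatocytes, while negative ones such as albumin fall. These proteins are made mainly by hepatocytes, which are not the cells the isolation aimed at. In such bulk samples, more cells of a type and more RNA per cell cannot be told apart.

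The arrays carried clear endothelial signal. Of 16 tested endothelial markers, 15 fell in cirrhotic arrays, and the summed signal of the 16 lay between 31251 and 33595 in cirrhotic and between 59382 and 64473 in control arrays. Of 17 tested markers of hepatocytes that are not secreted, none was at 0, 2 rose and 0 fell, and their summed signal lay between 18417 and 40419 in cirrhotic and between 14523 and 25485 in control arrays. Cirrhotic array 3 stood apart: on it each of the 17 hepatocyte markers peaked among the cirrhotic arrays, while all 9 tested bile duct markers, all 10 macrophage markers and all 11 T and NK cell markers were lowest there. Every array had a trimmed mean signal between 399.2 and 399.6, and unspiked bacterial control probe sets reached at most between 21.7 and 49.9, which marks the level at which a signal cannot be told from background.

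The 3 fibrinogen genes lie next to each other on rat chromosome 2, in the order Fgg, Fga and Fgb. Their promoters are shown because all of their brightest probe sets rose together, with that of Alb, whose probe sets did not pass the test, beside them. Each window runs from 250 bases before to 50 bases after the transcription start in RefSeq's GRCr8 annotation, read 5′ to 3′ on the gene's strand, and capitals mark CTGGGA or its reverse complement TCCCAG, the core of the acute phase response element known from rat A2m. The windows are chr2:170652833-170653132 (plus strand) for Fgg, chr2:170671919-170672218 (plus strand) for Fga, chr2:170700826-170701125 (minus strand) for Fgb and chr14:17906930-17907229 (minus strand) for Alb.
Fgg: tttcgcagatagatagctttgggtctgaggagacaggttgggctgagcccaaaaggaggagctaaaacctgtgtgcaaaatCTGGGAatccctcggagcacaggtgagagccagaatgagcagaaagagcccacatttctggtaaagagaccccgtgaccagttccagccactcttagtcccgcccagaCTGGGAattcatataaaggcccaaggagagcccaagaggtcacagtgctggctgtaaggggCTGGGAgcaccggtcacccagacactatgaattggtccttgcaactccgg
Fga: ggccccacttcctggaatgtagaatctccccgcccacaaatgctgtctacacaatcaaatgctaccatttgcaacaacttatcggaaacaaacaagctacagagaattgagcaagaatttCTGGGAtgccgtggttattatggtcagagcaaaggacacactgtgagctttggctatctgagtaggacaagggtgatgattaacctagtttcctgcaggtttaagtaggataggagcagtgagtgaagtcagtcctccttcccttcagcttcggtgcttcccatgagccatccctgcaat
Fgb: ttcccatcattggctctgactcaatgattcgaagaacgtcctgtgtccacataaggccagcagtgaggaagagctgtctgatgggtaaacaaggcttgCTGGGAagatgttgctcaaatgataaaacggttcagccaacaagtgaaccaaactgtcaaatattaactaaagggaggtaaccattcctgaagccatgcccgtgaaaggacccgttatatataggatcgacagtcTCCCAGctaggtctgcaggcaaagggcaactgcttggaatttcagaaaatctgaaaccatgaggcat
Alb: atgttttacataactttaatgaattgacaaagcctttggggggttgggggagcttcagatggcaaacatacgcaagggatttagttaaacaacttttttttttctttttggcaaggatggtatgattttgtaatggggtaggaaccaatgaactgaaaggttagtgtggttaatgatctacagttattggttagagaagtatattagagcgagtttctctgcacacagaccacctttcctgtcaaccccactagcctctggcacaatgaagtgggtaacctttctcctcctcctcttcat
Fgg held 3 matches, whose first bases lie at -169, -61 and 1 counted from the start, Fga held 1 at -130, and Fgb held 2 at -152 and -17. No match was found in the Alb window. Promoter entries were found for 7 of the 10 genes, and A2m, Lbp and Hp, which had none, were not searched. CTGGGA on either strand was in 4 of these 7 windows (the fibrinogen genes and Crp), against 30.3% of all 33469 windows of this length. Matches and calls did not always go together: Hpx, which rose, held 0 matches, and Crp, which did not pass, held 1. TTCNNNGAA, the palindrome that STAT factors bind, was in 2 of 7 windows against 8.87% of all. TTNNGNAA, a loose C/EBP motif, was in 6 of 7 against 41.3%, and GTTAAT, one arm of the HNF1 site, in 3 of 7 against 7.45%. Both strands were searched and no match in these windows overlapped a match of another motif. These matches describe letters in a window, and binding was not measured.

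Cirrhotic arrays had higher signals of the protease inhibitor A2m, the lipopolysaccharide-binding protein Lbp, all 3 fibrinogen chains and the haem carrier Hpx. Differences of Orm1, Hp, Crp and Alb did not pass the test. With limma's moderated statistics and Benjamini-Hochberg adjustment across the 9519 probe sets bright enough to be tested, 12 of the 14 probe sets were tested, 7 rose at an adjusted p under 0.05, 0 fell and 5 did not pass. Of all tested probe sets 25.4% passed, 12.3% having risen and 13.2% having fallen. The filter kept a probe set by its mean over all 6 arrays, corresponding to a signal of about 127, and A2m and the weaker Fga probe set were kept although their control signals averaged 46.2 and 95.8. Without the filter, all 14 probe sets were tested and 6 rose, against 8.06% of all 15866 probe sets, and their median log2 difference was 1.19, against -0.02 over all probe sets. The groups did not overlap, with cirrhotic higher, in 7 of the 12 tested probe sets, against 20.8% of all tested.

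**Figure D1:**
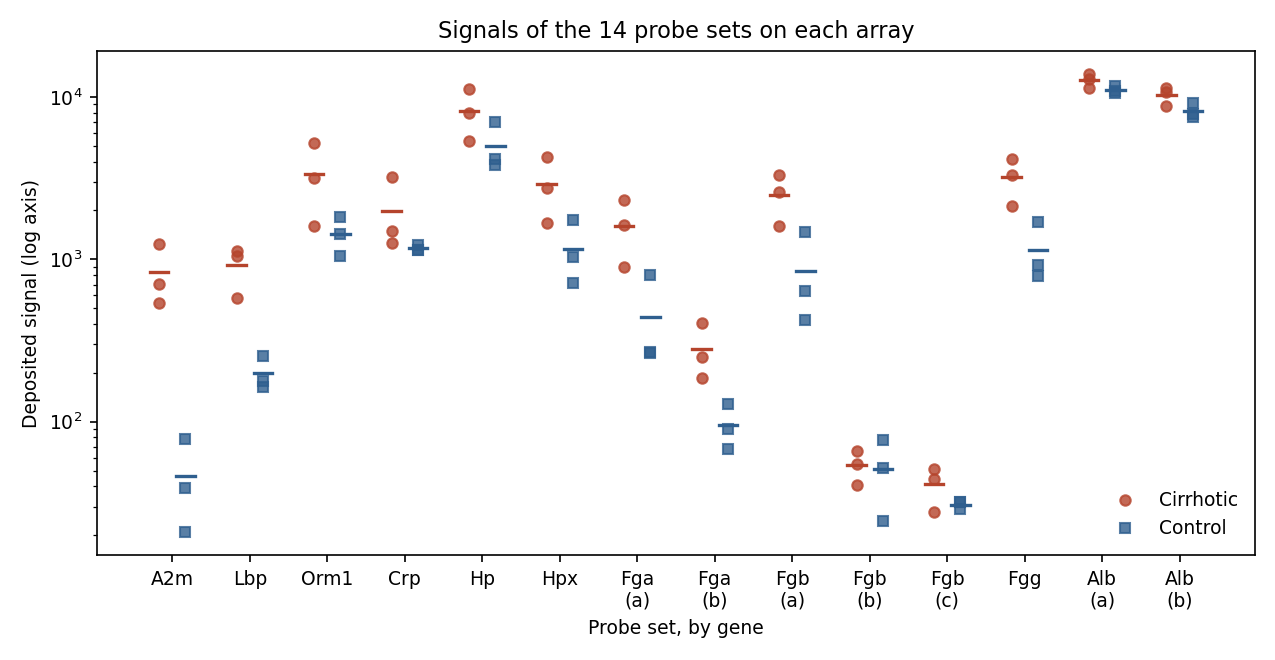
Deposited signal (log axis) of the 14 probe sets on each array, cirrhotic as circles and control as squares, with group means as bars. The letters separate probe sets of the same gene. A2m and Lbp show the widest gaps, Alb is the brightest in both groups, and the dim Fgb probe sets (b) and (c) stay under 100 on every array.

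A2m encodes alpha-2-macroglobulin, which traps proteases of many classes and is a major acute phase protein of the rat. Its probe set 1367794_at read 1242.4, 707.0 and 541.1 on cirrhotic arrays 1, 2 and 3, against 39.3, 78.5 and 20.8 on control arrays 1, 2 and 3. The mean signal was 830.2 ± 366.5 in cirrhotic and 46.2 ± 29.5 in control arrays (SD, n = 3 each). The groups lay far apart, and 2 of the 3 control signals were within the bacterial control probe sets of their array. The log2(signal + 16) difference was 3.79 (SE 0.40, adjusted p = 0.000861). Because the control signals are dim, its size depends on the added 16: it was 4.25 with 1 added and 2.42 with 126 added. A2m passed whichever array was left out, with differences between 3.46 and 4.14.

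Lbp encodes the plasma protein that hands bacterial lipopolysaccharide to CD14. Its probe set 1387868_at read 1053.6, 575.5 and 1122.5 on cirrhotic arrays 1, 2 and 3, against 179.1, 162.7 and 254.2 on control arrays 1, 2 and 3. The lowest cirrhotic signal was above the highest control signal, and no array was within the bacterial controls. The log2 difference was 2.09 (SE 0.27, adjusted p = 0.00194), a 4.24-fold higher value on this scale. It passed whichever array was left out, with differences between 1.91 and 2.39.

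The fibrinogen genes encode the Aα (Fga), Bβ (Fgb) and γ (Fgg) chains, which assemble in the hepatocyte into the clotting protein that thrombin turns into fibrin. Fgg (1370086_at) read 3295.3, 2137.5 and 4175.1 on cirrhotic arrays 1, 2 and 3, against 1706.3, 789.0 and 921.9 on control arrays 1, 2 and 3. Fgb (1370511_at) read 2602.1, 1612.0 and 3292.6 on the cirrhotic arrays, against 1475.8, 421.4 and 639.4 on the control arrays. The brighter Fga probe set (1370992_a_at) read 1622.9, 891.8 and 2310.0 on the cirrhotic arrays, against 797.7, 270.3 and 265.7 on the control arrays. In all 3 chains cirrhotic array 3 was highest, cirrhotic array 2 was the lowest of its group and control array 1 was the highest control, and the groups did not overlap.

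On the log2(signal + 16) scale Fgg rose by 1.51 (SE 0.33, adjusted p = 0.0136), Fgb by 1.68 (SE 0.44, adjusted p = 0.0277) and Fga by 1.91 (SE 0.47, adjusted p = 0.0223). Their 95% confidence intervals overlapped widely, from 0.75 to 2.27 for Fgg, from 0.66 to 2.70 for Fgb and from 0.82 to 3.00 for Fga. The second Fga probe set (1371258_at) was dimmer, with 249.2, 184.6 and 407.3 on the cirrhotic arrays against 128.8, 90.2 and 68.3 on the control arrays, and rose by 1.37 (SE 0.31, adjusted p = 0.0155). The 2 other Fgb probe sets (1371234_at and 1388266_at) were too dim to be tested, at 53.8 ± 12.6 and 41.2 ± 12.1 in cirrhotic and 51.1 ± 26.1 and 30.8 ± 1.76 in control arrays (SD, n = 3 each), and the groups overlapped in both. Signals this close to the bacterial controls carry little information, and the Fgb call rests on the bright probe set. All 4 fibrinogen calls ended without cirrhotic array 1 (adjusted p between 0.0539 and 0.0934) and without control array 3 (between 0.0585 and 0.0963). Without control array 2, the call of Fgb ended (0.0757), as did that of the brighter Fga probe set (0.0748), and the call of Fgb also ended without cirrhotic array 3 (0.0588). The differences stayed between 1.08 and 2.41 whichever array was left out.

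Hpx, which encodes haemopexin, the plasma carrier of free haem, read 2743.2, 1669.7 and 4280.5 on cirrhotic arrays 1, 2 and 3, against 1740.5, 1030.2 and 712.0 on control arrays 1, 2 and 3 (1370065_at). Cirrhotic array 2 read below control array 1, so the groups overlapped. Hpx rose by 1.30 (SE 0.40, adjusted p = 0.0465), a call near the threshold. It ended without cirrhotic array 1 or 3 or control array 2 or 3 (adjusted p = 0.126, 0.091, 0.116 and 0.149), and without the filter (0.0713), without the variance trend (0.0529) and with a robust variance (0.0544).

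Hp encodes haptoglobin, which binds haemoglobin released from red cells. Its probe set 1370148_at read 7979.7, 5323.8 and 11188.8 on the cirrhotic arrays, against 7024.2, 4124.6 and 3803.7 on the control arrays. Cirrhotic array 2 lay below control array 1. The log2 difference was 0.70 (SE 0.30, 95% confidence interval from -0.00 to 1.41, adjusted p = 0.127) and passed only without cirrhotic array 2 (0.98, adjusted p = 0.0389).

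Orm1 encodes alpha-1-acid glycoprotein, a binding protein of drugs and lipophilic compounds. It read 3176.8, 1605.2 and 5229.3 on the cirrhotic arrays, against 1834.0, 1047.7 and 1428.7 on the control arrays (1368731_at). The cirrhotic signals spread widely (3337 ± 1817, SD, n = 3), and cirrhotic array 2 lay below control array 1. The log2 difference was 1.09 (SE 0.40, 95% confidence interval from 0.16 to 2.01, adjusted p = 0.0819), and it passed without cirrhotic array 2 (1.53, adjusted p = 0.00988).

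Crp, a pentraxin that binds phosphocholine on bacteria and damaged cells, is present in normal rat plasma and rises little in the rat acute phase. It read 1500.2, 1255.9 and 3220.2 on the cirrhotic arrays, against 1223.5, 1146.9 and 1147.6 on the control arrays (1387830_at). The control signals lay close together (1173 ± 44.0, SD, n = 3) and each cirrhotic signal lay above them, but most of the difference came from cirrhotic array 3. The log2 difference was 0.63 (SE 0.31, 95% confidence interval from -0.09 to 1.36, adjusted p = 0.174), and without cirrhotic array 3 it was 0.23 (adjusted p = 0.261).

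Alb encodes albumin, the most abundant plasma protein and a negative acute phase protein. Probe set 1367555_at read 12837.7, 11422.2 and 13924.9 on the cirrhotic arrays, against 11729.0, 10635.9 and 10860.4 on the control arrays, and 1367556_s_at read 10670.9, 8830.0 and 11415.4 against 9126.7, 7568.4 and 7843.4. The groups overlapped in both. The log2 differences were 0.20 (SE 0.09, adjusted p = 0.142) and 0.33 (SE 0.12, adjusted p = 0.0768), and the 95% confidence intervals reached up to 0.40 and 0.60. The first of these gave the brightest signal of its array on 4 of the 6 arrays. The second passed without cirrhotic array 2 (0.44, adjusted p = 0.0253).

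**Figure D2:**
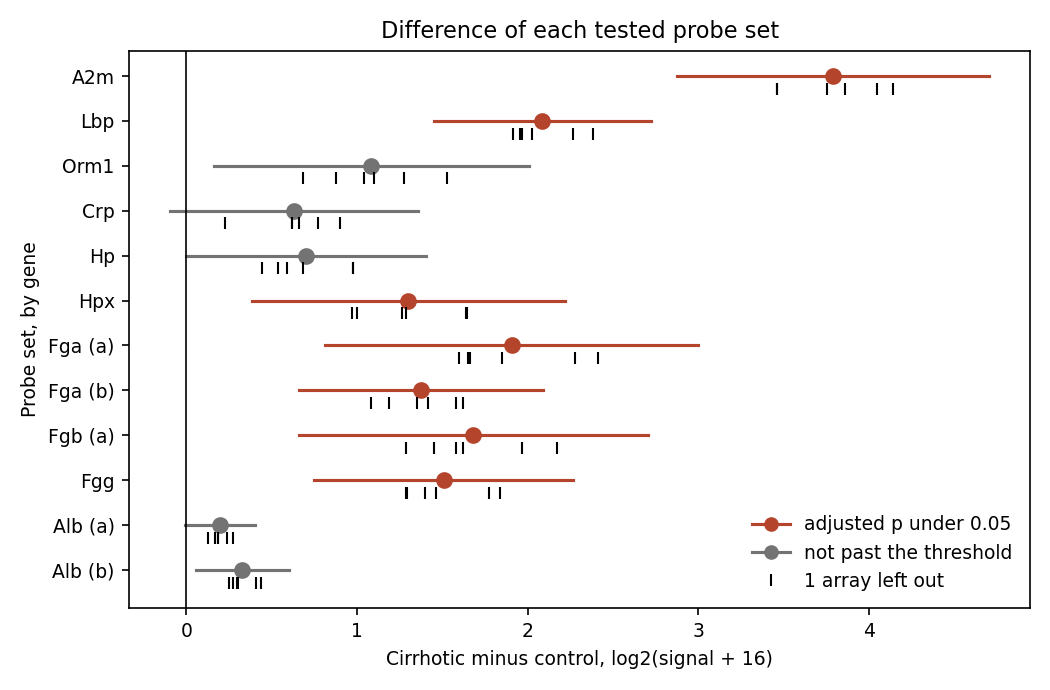
Difference between cirrhotic and control arrays on the log2(signal + 16) scale for the 12 tested probe sets, with 95% confidence intervals from limma, and ticks for the difference with each array left out. All 12 differences are positive, 7 pass the threshold, and A2m at 3.79 and Lbp at 2.09 have the highest values.

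The order of the arrays within a group was shared by most of these probe sets. Cirrhotic array 3 had the highest cirrhotic signal in 11 of the 12 tested probe sets, against 35.1% of all tested probe sets, and cirrhotic array 2 the lowest in 11, against 35.8%. A2m was the exception in both, with its highest cirrhotic signal on array 1 and its lowest on array 3. Control array 1 had the highest control signal in 10 of the 12, against 30.8% of all, the exceptions being A2m and Lbp. Hepatocyte enzymes had a like order among the cirrhotic arrays, with the highest cirrhotic signal on array 3 in 32 of 32 tested genes. Among the control arrays the likeness was weaker, with control array 1 highest in 19 of 32. On the log2 scale the mean of these enzymes was 9.21, 8.97 and 10.31 on cirrhotic arrays 1, 2 and 3, and 9.58, 9.36 and 8.83 on control arrays 1, 2 and 3. The groups overlapped in this mean, with cirrhotic arrays 1 and 2 below control arrays 1 and 2. Like A2m, all 9 tested bile duct markers had their lowest cirrhotic signal on array 3, against 38.8% of all tested probe sets. The same held for all 10 macrophage markers and all 11 T and NK cell markers tested. Bile duct markers had a summed signal between 5630 and 14121 in cirrhotic and between 1269 and 2076 in control arrays. Of 13 tested stellate cell and myofibroblast markers 10 rose, and 2 had their lowest cirrhotic signal on array 3. Their list had a summed signal between 19557 and 32484 in cirrhotic and between 4878 and 5752 in control arrays. No marker of either list was at 0, but that alone does not set a signal above the bacterial controls. In each list 2 measured markers were too dim to be tested. The part of bile duct cells, stellate cells and myofibroblasts in the A2m result was not tested.

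**Figure D3:**
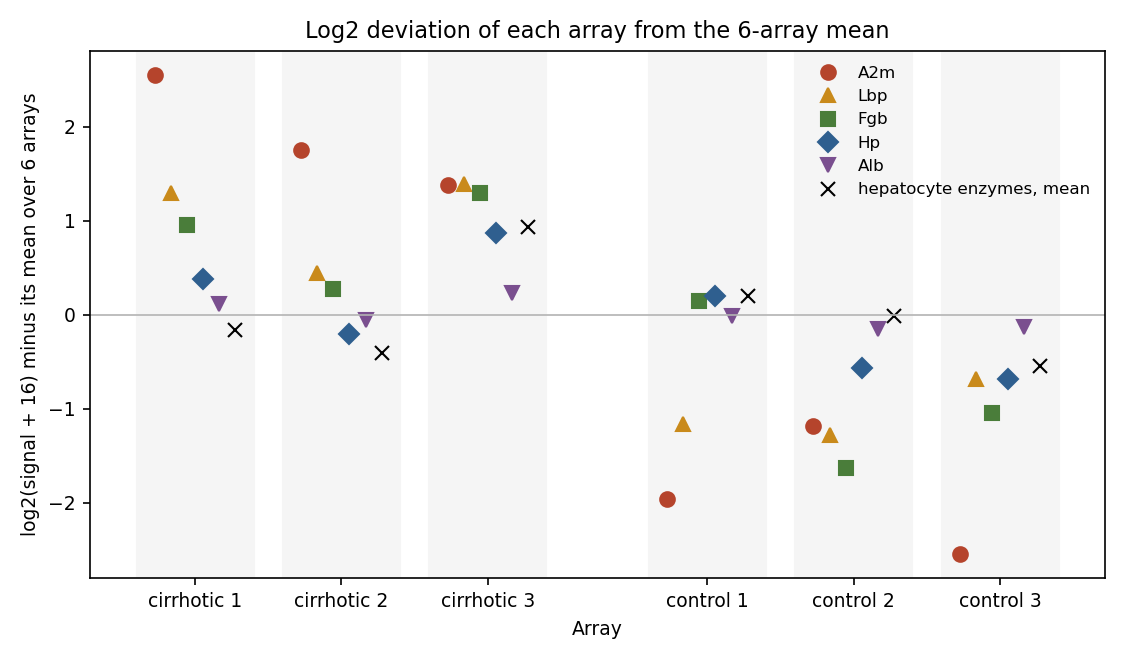
Deviation of each array's log2(signal + 16) from the mean over the 6 arrays, for A2m, Lbp, the bright Fgb probe set, Hp, Alb (1367555_at) and the mean of the 32 tested hepatocyte enzymes. On cirrhotic array 3 the enzymes are at 0.93, close to Hp, while on cirrhotic arrays 1 and 2 the enzymes lie below their mean and A2m, Lbp and Fgb above theirs.

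The signals were also set against those enzymes within each array, by subtracting the enzymes' mean log2 value, which is given as a description with no test; this list holds most of the hepatocyte markers above. By this measure A2m was 3.54 higher in cirrhotic arrays, Lbp 1.84, the brighter Fga probe set 1.66, Fgb 1.44, Fgg 1.26, Hpx 1.06 and Orm1 0.84, and the groups did not overlap for any of these. Against the enzymes' median, Fgb did overlap. Hp differed by 0.46 and Crp by 0.39, with overlap, but against only the enzymes with a mean signal over 1000 the differences were 0.58 and 0.51 and neither overlapped. Hp also did not overlap without cirrhotic array 3 or control array 1, nor Crp without control array 3. The Alb probe sets differed by -0.05 and 0.09 with overlap, and by 0.29 and 0.41 without cirrhotic array 3, where 1367556_s_at no longer overlapped. Both are among the brightest probe sets and varied little between arrays before the enzymes were subtracted. Whether signals this bright still rise in step with the amount of RNA was not tested. Non-overlap with cirrhotic higher was found in 8 of the 12, against 3.5% of all tested probe sets set against the same enzymes. Before the enzymes were subtracted it was 7 of the 12, against 20.8%. The subtraction carries the enzymes' own spread between arrays into probe sets that do not share it. The 3.5% is therefore not a like measure for probe sets that share the enzymes' array order. Relative to the enzymes, the count out of 12 was 7 against their median, 10 against the brighter enzymes, and between 8 and 10 with single arrays left out. Fgg lay 2.48, 2.10 and 1.72 above the enzymes' mean on cirrhotic arrays 1, 2 and 3, and 1.17, 0.29 and 1.05 above it on control arrays 1, 2 and 3. Crp lay 1.35, 1.34 and 1.35 above it on the cirrhotic arrays, although its own signal was far higher on cirrhotic array 3, and 0.70, 0.82 and 1.36 above it on the control arrays.

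Other positive acute phase genes were read from a list of 39, of which 26 had a probe set of their own and 24 were bright enough to be tested. Of these, 9 rose, 0 fell and 15 did not pass, with a median log2 difference of 1.16 against -0.02 over all tested probe sets. Of all tested probe sets 12.3% rose and 13.2% fell, and these shares also stand beside the counts of the lists below. Without the filter, 8 of the 26 rose, against 8.06% of all 15866 probe sets. Cp, the copper carrier ceruloplasmin, rose by 1.97 (SE 0.23, adjusted p = 0.00117), and C1s, a protease of the classical complement pathway, by 1.79 (SE 0.28, adjusted p = 0.00352). Lcn2, an iron-trapping protein also made by neutrophils and epithelium, rose by 3.41 (SE 0.47), and the matrix and plasma protein gene Fn1 by 2.33 (SE 0.32). Both had their lowest cirrhotic signal on array 3. The filter kept Lcn2 although its control signals averaged 94.8, and Lcn2 passed without the filter too (adjusted p = 0.00476). Without cirrhotic array 3 the list had 9 genes higher, 8 of them shared with the fit of all arrays, and 0 lower, with a median of 0.83.

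Among 17 tested negative acute phase genes 4 rose and 2 fell, with a median of 0.42, or -0.00 without cirrhotic array 3, where the same 4 rose and the same 2 fell. Serpina6, the plasma carrier of corticosteroids, rose by 3.40 (SE 0.41), the lipoprotein gene Apoa1 by 2.59 (SE 0.43) and the growth factor gene Igf1 by 1.34 (SE 0.20). The list's name gives the direction its members take in an acute phase, so these 3 calls and that of the fetuin gene Ahsg ran against it. The 2 that fell are abundant in livers of male rats: Obp3, an odorant-binding protein, read 26.0, 20.8 and 16.9 on the cirrhotic arrays, against 3008.6, 2806.5 and 1069.0 on the control arrays. Its cirrhotic signals were within the bacterial controls, so it was at least 42.0-fold lower in cirrhotic (adjusted p = 0.000355). Cyp2c11, a steroid-hydroxylating cytochrome P450, fell by 2.26 (SE 0.42, adjusted p = 0.00758).

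The signalling genes behind the acute phase moved in both directions, with 4 higher and 7 lower among 24 tested, a median of -0.05, and 7 higher and 6 lower without cirrhotic array 3. The cytokine Il6 read 524.0, 359.4 and 177.7 on cirrhotic arrays 1, 2 and 3, against 63.3, 89.7 and 37.6 on control arrays 1, 2 and 3, and rose by 2.15 (SE 0.40, adjusted p = 0.00716). It was too dim to be tested when cirrhotic array 1 or 2 was left out and passed in the other 4 leave-outs. Il6st, which encodes the gp130 subunit, fell by 1.09 (SE 0.11, adjusted p = 0.000719), and Lifr, the receptor for leukaemia inhibitory factor, by 1.33 (SE 0.18). The interleukin 6 receptor gene Il6r rose by 1.24 (SE 0.32, adjusted p = 0.0273) and the kinase gene Jak2, which acts below gp130, by 0.97 (SE 0.22, adjusted p = 0.0173), and each passed in only 2 of 6 leave-outs. For Il6r these were the ones without cirrhotic array 3 or control array 1, and for Jak2 those without cirrhotic array 2 or 3. The filter kept Il6 and Il6r although their control signals averaged 63.5 and 101.8. Il1a fell by 1.65 (SE 0.16) and Socs3, an inhibitor of gp130 signalling and itself a STAT3 target, by 0.62 (SE 0.11). Hsd11b1, which regenerates active glucocorticoid, rose by 1.66 (SE 0.25), while the glucocorticoid receptor gene Nr3c1 fell by 0.52 (SE 0.13, adjusted p = 0.0236) and lost its call without cirrhotic array 1 or control array 1 or 3. Stat3 did not pass, with a log2 difference of -0.48 (SE 0.18, adjusted p = 0.0868). These genes are active in endothelial and other cells as well as in hepatocytes.

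Of 38 genes for partners and receptors of the plasma proteins, 22 were tested, 4 rose and 6 fell, with a median of 0.03. Lrp1, the endocytic receptor for A2m-protease and haem-haemopexin complexes, rose by 1.06 (SE 0.16, adjusted p = 0.00352). F3, tissue factor, which starts the clotting cascade that ends in fibrin, rose by 2.02 (SE 0.22, adjusted p = 0.000941) but was too dim to be tested when any cirrhotic array was left out. Plat, which activates plasminogen on fibrin, rose by 1.53 (SE 0.26, adjusted p = 0.0056). Hbb, a haemoglobin chain and thus part of the ligand of haptoglobin, read 6780.3, 6502.0 and 1623.0 on cirrhotic arrays 1, 2 and 3, against 627.9, 1276.8 and 540.1 on control arrays 1, 2 and 3. It rose by 2.43 (SE 0.56, adjusted p = 0.0168), a red cell transcript whose part in the other results was not tested, and its adjusted p was 0.069 without cirrhotic array 1, 0.0555 without control array 1 and 0.0692 without control array 3. Hmox1, which degrades haem, fell by 1.06 (SE 0.28, adjusted p = 0.0304), and did not pass without control array 2 (0.096) or control array 3 (0.101). Fcgrt, the receptor that rescues albumin from lysosomes, fell by 1.11 (SE 0.19, adjusted p = 0.00521). The scavenger receptors Stab1 and Gpr182 and the Fc receptor Fcgr2b, which are sinusoidal endothelial genes, fell by 1.64 (SE 0.16), 1.57 (SE 0.14) and 0.75 (SE 0.09).

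Hepatocyte enzymes, tested for 32 of 45 genes listed, had 4 higher, 0 lower and a median of 0.14. The 4 of 32 is near the 12.3% of all tested probe sets that rose. Without cirrhotic array 3 the enzymes had 3 higher and 4 lower among 31 tested, with a median of -0.28. The urea cycle gene Asl rose by 0.87 (SE 0.18, adjusted p = 0.011), and it passed whichever array was left out. Cps1, the first enzyme of that cycle, rose by 1.54 (SE 0.38, adjusted p = 0.0227), but lost its call without cirrhotic array 1 or control array 2 or 3 (adjusted p = 0.0586, 0.06 and 0.0668). Of 19 hepatocyte transcription factors 6 were bright enough to be tested and 0 passed, Foxa2 being nearest (0.65, SE 0.20, adjusted p = 0.0501). At an unadjusted p under 0.05, 1 of these 6, Foxa2, differed. Without the filter 16 were tested and 1 rose: Onecut1, with 181.1, 347.3 and 144.9 on the cirrhotic arrays, against 82.3, 84.7 and 24.4 on the control arrays (1.62, adjusted p = 0.0474). That the plasma protein genes and the enzymes differ in their share of calls was not tested.

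**Figure D4:**
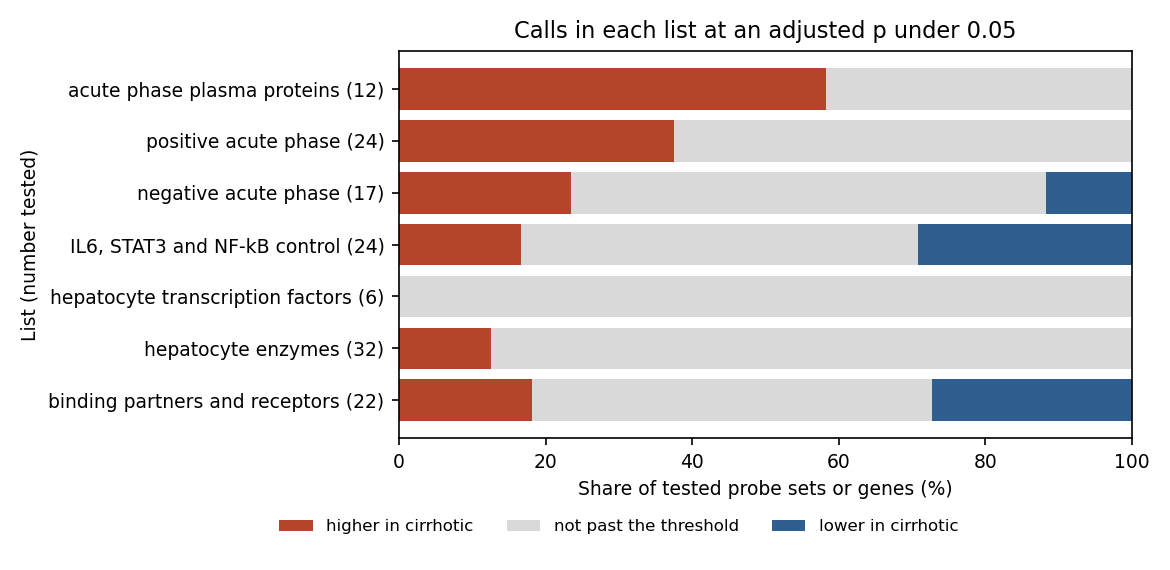
Share of tested probe sets (first bar) or genes (other bars) that were higher, not past the threshold or lower in cirrhotic arrays, with the number tested in brackets. The acute phase plasma protein probe sets had 7 of 12 higher, the other positive acute phase genes 9 of 24 and the hepatocyte enzymes 4 of 32. Of all tested probe sets 12.3% were higher, a share near that of the enzymes.

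Genes with the most similar profile over the 6 arrays were found by the smallest Euclidean distance between log2 values centred on each gene's mean, for A2m, Hp and Fgb. For A2m these were Mmrn1, Lox, Mfap4, Wnt4 and Lcn2, at distances between 0.71 and 1.13. They include a collagen-crosslinking enzyme (Lox), an elastic fibre protein (Mfap4) and a secreted signalling protein (Wnt4). The nearest was Mmrn1, at 0.71, and Lox came next, at 1.00. Lcn2, at 1.13, is on the positive acute phase list above. All 5 rose, by between 3.29 and 4.02 on the log2 scale. For Hp they were Ebp, Cyp51, Ugt2b15, Nsdhl and Nr1h4, at distances between 0.30 and 0.35. Ebp, Cyp51 and Nsdhl encode enzymes of cholesterol synthesis and Nr1h4 the bile acid receptor of hepatocytes, and their differences, between 0.53 and 0.79, did not pass. For Fgb they were Fhl2, C3, Ahsg, Serpina3n and Cfi, at distances between 0.69 and 0.88. The complement gene C3 and the protease inhibitor Serpina3n are positive acute phase genes of the list above, and rose by 1.94 (SE 0.35) and 1.49 (SE 0.24). Ahsg, which is on the negative acute phase list, lay nearer to Fgb than Serpina3n did and also rose. These likenesses are over 6 arrays in 2 groups and carry no test. Because the distance includes the difference between the groups, genes chosen this way have a like difference by selection.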

How the data were processed

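RNA from liver endothelial cells was measured on 6 rat Affymetrix 1-colour arrays, 3 cirrhotic and 3 control. The deposited value table holds 1 intensity per probe set and array. The trimmed means of the 6 arrays were nearly equal, and how the authors summarised and scaled the arrays is not stated in the labels. Probe sets were named from the platform annotation of 2016: of 15866, 12783 had 1 symbol, 312 several and 2771 none, and 12748 of those with 1 symbol matched the GRCr8 gene table. The 57 control probe sets and the 40% with the lowest mean over all 6 arrays were left out, leaving 9519. Differences were tested on log2(intensity + 16), 16 being the rounded 10th percentile of the table, with limma 3.58.1 in R 4.3.3 (lmFit, eBayes with a variance trend), two-sided, adjusted by Benjamini-Hochberg at 0.05. The script was tested on simulated data.

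The 10 genes, the lists and the tests were chosen with earlier results of these data known. All probe sets of the 10 genes are given. From each list, the text draws on up to 4 genes with the smallest p on their brightest probe set and genes that moved against most of the list's calls. A few further list genes (Ahsg, Socs3, Stat3, Nr3c1, Fcgrt, Hmox1, Foxa2, Onecut1) were named after their values were seen. The number of arrays limits the precision. Other scalings, pseudocounts, filters, variance models, array weights, a replicate block and leaving out each array were tried.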

Additional observations from a re-analysis of the deposited data

How the results depend on the processing

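The count of 7 higher probe sets among the acute phase plasma proteins ranged from 2 to 10 when single arrays were left out: it was 2 without cirrhotic array 1 or control array 3, 4 without control array 2, 5 without cirrhotic array 3 and 10 without cirrhotic array 2. It was 9 with array weights, 6 without the filter and 5 with the lowest 60% left out. Over all probe sets the count of 2421 was 3772 with array weights and ranged from 1335 (without cirrhotic array 1) to 2472, with 1394 without control array 3. Centring each array on its median gave 2405, of which 925 were higher, against 1167 of 2421 as deposited, and moved the median log2 difference from -0.02 to -0.10. The arrays' numbers gave no sign of a pairing. Same-numbered arrays had correlations of 0.019, -0.009 and -0.157 in their deviations, and 0 of 6 correlated best with their own number. With 3 arrays per group this cannot exclude a pairing. The first control array has no number in its label and was taken as array 1. With the number as a replicate block, 7 of these probe sets and 1948 of all passed, Orm1 among them (adjusted p = 0.0341) and Hpx no longer (0.0639). No difference of the plasma protein probe sets changed sign under the alternatives: 175 values kept their side of the threshold, 19 no longer passed and 6 newly passed. A2m passed in each of the 16 alternatives in which it was tested, between 2.42 and 4.28, and Lbp in each of 17. With the lowest 60% left out, A2m was too dim to be tested. The 96 alternative values relative to the hepatocyte enzymes each moved by less than the larger of the 2 groups' SDs. With 3 arrays per group, leaving 1 out cannot move a difference by that much, so this outcome was fixed for those values. The Alb differences, near 0, changed sign in some. Whether the groups overlapped did change in some settings for Hp, Crp, Fgb and the Alb probe set 1367556_s_at. Signals near the bacterial controls limit what can be said of A2m in control arrays and of the dim Fgb probe sets.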

Other observations

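The genes in these observations were chosen after their values were seen. Hamp, which encodes the iron hormone hepcidin, an interleukin 6 target in hepatocytes, read 1907.6, 2274.6 and 3744.8 on cirrhotic arrays 1, 2 and 3, against 1075.8, 962.1 and 1212.7 on control arrays 1, 2 and 3. It rose by 1.22 on the log2 scale (SE 0.24, adjusted p = 0.00934), and the groups did not overlap. Apcs, the pentraxin gene next to Crp on chromosome 13, read 1556.0, 937.4 and 1677.4 on the cirrhotic arrays, against 1546.2, 705.8 and 730.3 on the control arrays, and did not pass (0.53, SE 0.34, adjusted p = 0.28). Unlike Crp, its groups overlapped.

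The hepatocyte enzyme gene Ugt2b, a glucuronosyltransferase, was too dim on average to be tested, yet read 1621.6 on cirrhotic array 3, against 766.4 and 187.9 on control arrays 1 and 2. It read 1.7 and 2.0 on cirrhotic arrays 1 and 2 and 2.5 on control array 3. The probe set was thus near 0 on 3 arrays, cirrhotic and control ones among them. Ugt2b was 1 of 5 measured enzymes too dim to be tested, while 32 were bright enough. Pck1, another enzyme of the list, read 3422.0 on cirrhotic array 1, 3531.4 on cirrhotic array 2 and 1905.4 on control array 3. Ugt2b therefore does not stand for the list.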
